A study of Mus musculus musculus x M. m. domesticus and Mus musculus domesticus and Mus musculus with 12 samples.

Results

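Testis expression was compared between the sterile hybrid males of the cross PWK/PhJ x LEWES/EiJ, called *MxD*, and the fertile males of the cross LEWES/EiJ x WSB/EiJ, called *DxD*. The arrays were chosen by the cross given in the labels, 3 from each genotype and 6 of the 12 in all, and no expression value was used to choose them. The maternal strain is written first. The *MxD* males had a *M. musculus* mother (PWK/PhJ) and a *M. domesticus* father (LEWES/EiJ), and the *DxD* males had 2 *M. domesticus* parents of different strains. Every male was an F1 aged 60 days, and RNA came from the whole testis. One Affymetrix Mouse Genome 430 2.0 array was hybridised per male.

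The comparison holds the species of the father constant, so both genotypes carried a *M. domesticus* Y chromosome, from LEWES/EiJ in *MxD* and from WSB/EiJ in *DxD*. It does not hold the X chromosome constant, since a son takes his X from his mother. The X chromosome was that of PWK/PhJ in *MxD* and that of LEWES/EiJ in *DxD*. The *MxD* males also carried 1 *M. musculus* set of autosomes, so sterility, hybrid autosomes and the *M. musculus* X chromosome cannot be told apart within these 6 males. The remaining genotypes, both fertile, are given beside the results for this reason. They are *DxM* (LEWES/EiJ x PWK/PhJ), the reciprocal hybrid with the LEWES/EiJ X chromosome, and *MxM* (PWK/PhJ x CZECHII/EiJ), which shares the PWK/PhJ X chromosome with *MxD*. Their differences from *DxD* use the same 3 *DxD* males. They are set beside those of *MxD* as values and limma calls, and no test between them is given.

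In the testis, spermatogonia divide by mitosis and enter meiosis as spermatocytes, whose haploid products, the round spermatids, then form sperm. Sertoli cells support these germ cells, and Leydig cells between the tubules make testosterone. In males the X and Y chromosomes are silenced during meiosis, and after meiosis most X-linked genes stay repressed in spermatids, although some X-linked genes, many of them specific to testis, become active there.

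The deposited log2 values cover 7000 genes, slightly more than the study counted as detected in all 12 males. Quantile normalization gave each array the same median of 8.14. Array precision is limited by their number, and arrays carry no read depth. The median SD between males of a genotype was 0.08 in *DxD*, 0.12 in *MxD*, 0.11 in *DxM* and 0.15 in *MxM*. The *DxD* replicates 2 and 3 correlated at r = 0.998 over all genes and *DxD* replicate 1 at 0.992 to 0.993 with them, the *MxD* males at 0.989 to 0.993 with each other, and males of different genotypes in this comparison at 0.961 to 0.977. The files pair no symbols with the Ensembl gene IDs, so symbols are given only for the 45 genes of the list the study printed with them. Apart from Cyp17a1, a Leydig cell gene that was expressed in every male, the usual marker genes of testis cells could not be looked up for this reason.

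The sterile males differed from *DxD* at many genes and in both directions. Of 7000 genes, 2170 or 31.0% differed by limma after Benjamini-Hochberg adjustment at 5%. They comprised 1116 genes higher in *MxD*, 15.9% of all genes, and 1054 lower, 15.1% of all genes. Centring each array on its median over 1997 autosomal genes, those known to lie on chromosomes 1 to 5, gave 995 higher and 1255 lower, with 2250 in all. The methods' t-test was run gene by gene in both its forms with the same adjustment. With equal variances 1586 genes passed, 786 higher and 800 lower, and with unequal variances 654 passed. Most of the differences called by limma were small. The median absolute log2 difference was 0.43 among the genes that differed and 0.20 over all genes, where the median standard error (SE) of a difference was 0.10. With a size of at least 0.5 required as well, 424 genes were higher (6.06%) and 390 lower (5.57%). At 1 log2 unit or more there were 48 higher and 34 lower genes, and at 2 units 10 higher and 0 lower. The *MxD* and *DxD* males did not overlap at 3537 genes (50.5%), 1747 of them higher and 1790 lower in *MxD*. Of the 2170 genes, 2154 were among these 3537. The labels do not give litters, so the p-values rest on the spread between the males measured. In the main limma fit this spread was pooled over the arrays of all genotypes, *DxM* and *MxM* included. With limma fitted to the *MxD* and *DxD* arrays alone, 2505 genes passed, 1256 higher and 1249 lower.

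**Figure D1:**
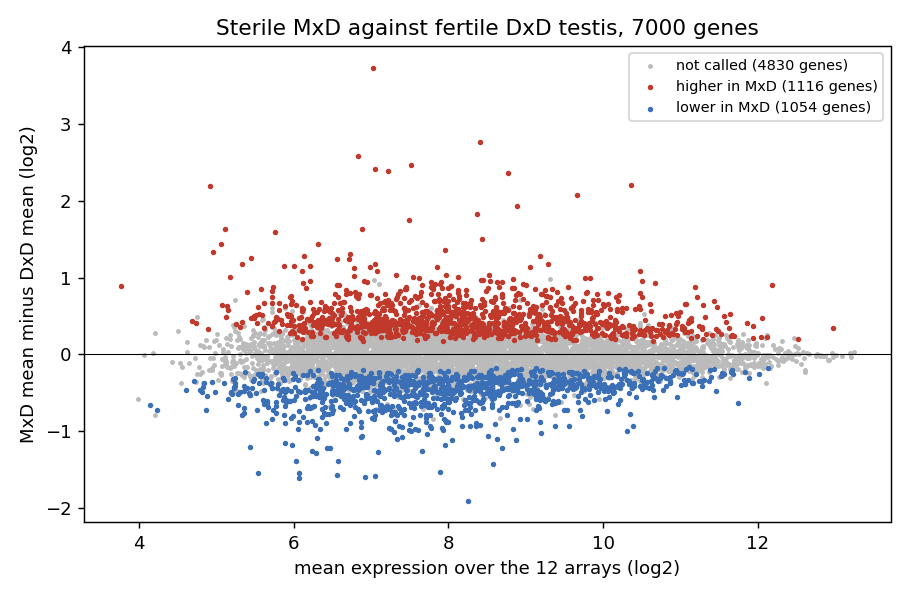
Log2 difference between the *MxD* and *DxD* means (y axis) against the mean log2 expression over the 12 arrays (x axis), 1 point per gene for 7000 genes, in red for the 1116 genes higher and in blue for the 1054 genes lower in *MxD* after Benjamini-Hochberg adjustment of limma. Most called genes lie within 1 log2 unit of 0, and the 10 genes beyond 2 units are all higher in *MxD*.

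Genes that differed were found at all levels of expression. Among the 1750 dimmest genes by mean over the 12 arrays, 252 were higher and 304 lower in *MxD*. In the next 2 groups of 1750 there were 304 higher and 273 lower, then 312 higher and 277 lower. The 1750 brightest genes had 248 higher and 200 lower, a median absolute difference of 0.15 and no gene lower by 1 log2 unit or more, where each of the other groups had a median absolute difference of 0.22 or 0.23.

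The largest positive differences were shared with the fertile genotypes that carry *M. musculus* alleles. The gene ENSMUSG00000038170 on chromosome 3 measured 3.87, 3.87 and 3.87 in the *DxD* males and 7.60, 7.70 and 7.51 in the *MxD* males, a difference of 3.74 on the log2 scale (SE 0.07, adjusted p = 3.2e-11 by limma). Only 2 genes lay below it in each *DxD* array, so the size is limited by the lowest level of the array. The fertile males of the other genotypes lay with *MxD*, with means of 7.80 in *DxM* and 8.80 in *MxM*. The gene ENSMUSG00000019853 measured 6.11, 6.01 and 6.11 in the *DxD* males and 8.88, 8.84 and 8.80 in the *MxD* males, which is 6.79-fold higher on the linear scale, and its means were 8.89 in *DxM* and 9.81 in *MxM*. Both genes thus separated *DxD* from every other genotype rather than sterile from fertile males.

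In the other direction, ENSMUSG00000035617 measured 9.76, 9.57 and 9.53 in the *DxD* males and 8.04, 7.60 and 7.52 in the *MxD* males, a difference of -1.90 on the log2 scale (SE 0.16, adjusted p = 1.8e-05 by limma). Its means were 7.76 in *DxM* and 7.94 in *MxM*, so all 3 genotypes with *M. musculus* alleles were below *DxD*. The gene ENSMUSG00000021898 measured 6.83, 7.02 and 6.88 in the *DxD* males and 5.26, 5.52 and 5.15 in the *MxD* males, a difference of -1.60 on the log2 scale (SE 0.22, adjusted p = 4.1e-04 by limma). The *MxD* mean was here the lowest of the 4 genotypes, with 5.80 in *DxM* and 6.25 in *MxM*. These genes were picked for size among genes without overlap, so their separation follows from the choice.

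Over the 15 genes with the largest positive difference, which ranged from 1.63 to 3.74 in *MxD* with a median of 2.21, the median difference from the same *DxD* males was 2.19 in *DxM* and 2.74 in *MxM*. In 2 of these 15 genes all *MxD* males lay beyond all *DxM* and *MxM* males. Over the 15 genes with the largest negative difference, from 1.25 to 1.90 lower with a median of -1.53, the medians were -1.11 in *DxM* and -0.85 in *MxM*, and in 7 of them the *MxD* males lay beyond those of both genotypes. The arrays' probes were designed on a reference sequence, and the part of sequence differences at the probes in these values was not tested.

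Genes of late and early germ cells that differed did so mostly in opposite directions. The study assigned each gene to the testis cell population in which it was most strongly induced in an external data set, namely Sertoli cells (somatic), spermatogonia (mitotic), spermatocytes (meiotic) or round spermatids (postmeiotic). These classes could be read for 1997 genes on chromosomes 1 to 4 and part of chromosome 5, of which 1102 have a class. Among the genes that differed, most postmeiotic and meiotic genes were lower and most mitotic and somatic genes higher in the sterile males. The 895 genes without a class had a median difference of 0.01. Of them 120 were higher (13.4%, against 15.9% of all genes) and 112 lower (12.5%, against 15.1%). In whole testis, fewer cells of a type and less RNA per cell cannot be told apart.

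Of 269 postmeiotic genes, 90 were lower in *MxD* by limma after Benjamini-Hochberg adjustment, or 33.5% where 15.1% of all genes were, and 11 were higher, or 4.09% where 15.9% of all genes were. With the replicate number as a block, 17 were higher and 130 lower. The median log2 difference was -0.22, a 14.2% lower level, with quartiles of -0.41 and -0.06. Counting any size, 230 of the 269 (85.5%) had a lower mean in *MxD*. At 0.5 or more, 38 were lower and 6 higher, where 5.57% of all genes were lower and 6.06% higher. The *MxD* and *DxD* males did not overlap at 151 of the 269 genes, or 56.1%, where they did not at 50.5% of all genes. Of these 151 genes, 136 were lower and 15 higher in *MxD*. Over all 7000 genes 1790 were lower and 1747 higher without overlap. The number of postmeiotic genes that were higher was 7 without *MxD* replicate 3 or without *DxD* replicate 3. The only higher postmeiotic gene among them with a symbol was Spinlw1.

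Of 324 meiotic genes, 65 were lower (20.1%, against 15.1% of all genes) and 20 higher (6.17%, against 15.9%), with a median difference of -0.10. With the replicate number as a block 36 were higher. The groups did not overlap at 147 meiotic genes, 105 lower and 42 higher in *MxD*, or 45.4%, against 50.5% of all genes. The higher meiotic genes numbered 11 to 13 without *MxD* replicate 2 or 3 or without any 1 of the *DxD* replicates.

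Of 367 mitotic genes, 144 were higher by limma after adjustment (39.2%, against 15.9% of all genes) and 11 lower (3.00%, against 15.1%). The median difference was 0.26, a 19.9% higher level, with quartiles of 0.11 and 0.40, and 312 genes (85.0%) had a higher mean in *MxD*. At 0.5 or more, 54 were higher and 2 lower, where 6.06% of all genes were higher and 5.57% lower. The groups did not overlap at 230 mitotic genes, 214 higher and 16 lower in *MxD*, or 62.7%, against 50.5% of all genes. Without *MxD* replicate 3 the number higher was 91. The number lower was 6 or 7 without *MxD* replicate 2 or 3 or without any 1 of the *DxD* replicates. The lower mitotic genes with a symbol were Baz2b, Sirpa and Usp48.

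Of 142 somatic genes, 40 were higher (28.2%, against 15.9% of all genes) and 12 lower (8.45%, against 15.1%), with a median difference of 0.17. At 0.5 or more 21 were higher and 9 lower, where 6.06% of all genes were higher and 5.57% lower. The number higher was 24 without *DxD* replicate 1 or without *DxD* replicate 3. The groups did not overlap at 78 somatic genes, or 54.9%, against 50.5% of all genes. Of these 78 genes, 55 were higher and 23 lower in *MxD*, where 1747 and 1790 of all 7000 genes were.

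**Figure D2:**
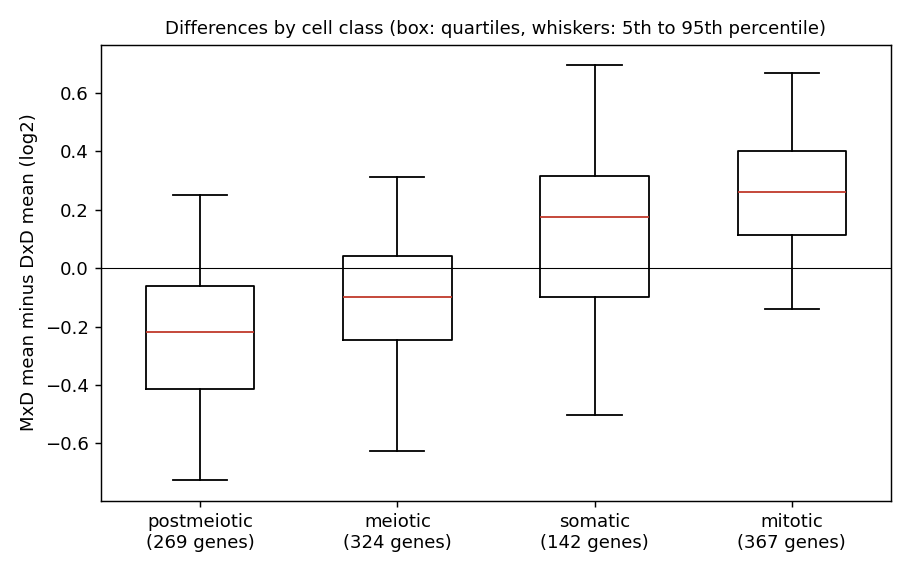
Log2 difference between the *MxD* and *DxD* means (y axis) for genes of each testis cell class on chromosomes 1 to 4 and part of 5 (x axis). Red lines are medians, boxes the quartiles, and whiskers run from the 5th to the 95th percentile; the medians are -0.22 for postmeiotic, -0.10 for meiotic, 0.17 for somatic and 0.26 for mitotic genes, and the postmeiotic and mitotic boxes lie on opposite sides of 0.

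The shift of each class was present in every sterile male. Averaged over the postmeiotic genes, the *MxD* males lay 0.18, 0.25 and 0.29 below the *DxD* mean on the log2 scale, while the *DxD* males lay between -0.02 and 0.02. Averaged over the mitotic genes, the *MxD* males lay at 0.24, 0.21 and 0.33 above the *DxD* mean, with the *DxD* males between -0.04 and 0.02. The groups did not overlap in either class. *MxD* replicate 3 stood farthest from *DxD* in both. Averages over the somatic genes were 0.12, 0.12 and 0.14 in the *MxD* males, and over the meiotic genes -0.15, -0.09 and -0.12, again with no overlap with the *DxD* males.

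The averages of the other fertile genotypes, against the same *DxD* males, lay nearer to *DxD* for postmeiotic and mitotic genes. The postmeiotic average was -0.03 in *DxM* and -0.01 in *MxM*, against -0.24 ± 0.06 (SD, n = 3) in *MxD*. The mitotic average was 0.10 in *DxM* and 0.05 in *MxM*, against 0.26 ± 0.06 (SD, n = 3) in *MxD*. The meiotic averages were closer together, at -0.07 in *DxM*, -0.09 in *MxM* and -0.12 in *MxD*. The somatic averages were 0.03 in *DxM*, 0.07 in *MxM* and 0.13 in *MxD*, and *MxM* replicate 3, at 0.16, lay above every *MxD* male. By limma after adjustment, *DxM* had 30 postmeiotic genes lower and 14 higher than *DxD*, where 6.21% of all genes were lower and 5.84% higher, and 30 mitotic genes higher and 4 lower.

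**Figure D3:**
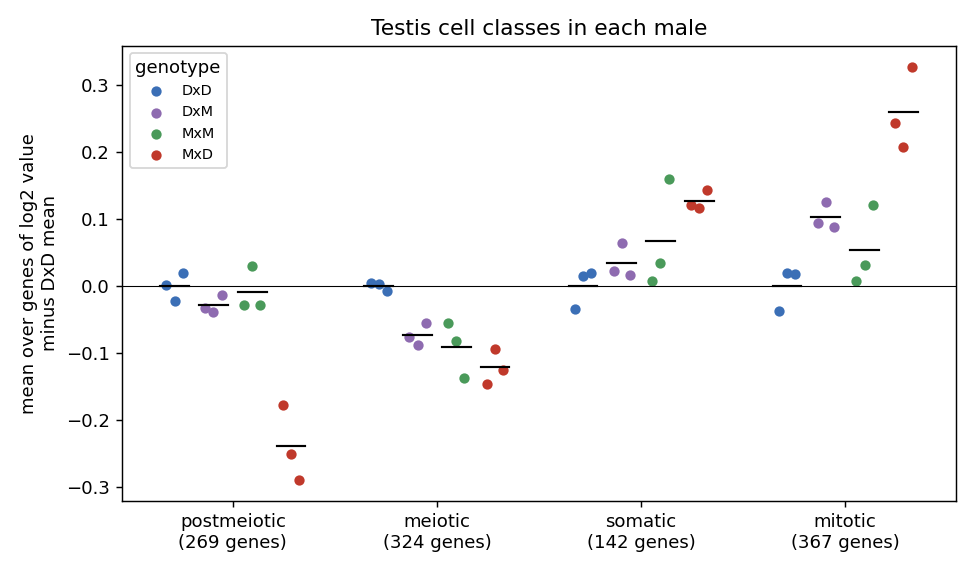
Mean over the genes of a testis cell class of the log2 value minus the *DxD* mean (y axis), 1 point per male and a bar at each genotype's mean, for *DxD*, *DxM*, *MxM* and *MxD* (3 males each). The *MxD* males lie from -0.29 to -0.18 for postmeiotic and from 0.21 to 0.33 for mitotic genes, apart from all other males, while they overlap the *MxM* males for meiotic and somatic genes.

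The postmeiotic and mitotic medians had the same sign on each chromosome covered. The median difference of postmeiotic genes was -0.25, -0.25, -0.18, -0.17 and -0.25 on chromosomes 1 to 5 (39 to 67 genes each). Mitotic genes had medians of 0.23, 0.22, 0.28, 0.28 and 0.28 (63 to 92 genes each). Meiotic medians were between -0.13 and -0.03. Somatic genes had medians of 0.18 to 0.24 on chromosomes 1 to 4, and the 22 somatic genes on chromosome 5 had a median of -0.10. Over all genes used of a chromosome the medians were between -0.01 and 0.03.

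The sizes depended on the level of the genes. From the dimmest to the brightest of these 4 groups of 1750 genes, the median difference of postmeiotic genes was -0.41, -0.46, -0.29 and -0.15, so the 145 brightest, which are the largest part of the class, had the smallest shift. Mitotic genes ran the other way, with 0.19, 0.27, 0.32 and 0.42, and only 28 of them were in the brightest group. The postmeiotic and mitotic medians kept their sign in all 4 groups.

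The 1997 genes of the study's gene table used here are all autosomal, so X-linked genes were examined only through 32 postmeiotic genes that the study listed as higher in sterile males. They were chosen on these samples for a difference between the reciprocal hybrids, a difference from *DxD* or *MxM*, and an *MxD* level above each fertile genotype. Their direction is therefore a description and not independent evidence. All 32 were higher in *MxD* by limma after Benjamini-Hochberg adjustment, where 15.9% of all genes were. By the methods' t-test with equal variances and the same adjustment 27 passed, and by the unequal-variance test 18. At all 32 every *MxD* male lay above every *DxD* male, as at 1747 of all 7000 genes. The median difference was 0.62, or 1.54-fold, with a range of 0.32 to 1.25. At 26 genes it was at least 0.5, where 6.06% of all genes were called higher by that much. The gap between the lowest *MxD* and the highest *DxD* male had a median of 0.43 and was 0.11 at its smallest.

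The gene with the largest difference was 1110059M19Rik, which measured 6.06, 6.09 and 6.01 in the *DxD* males and 7.34, 7.37 and 7.19 in the *MxD* males, a difference of 1.25 on the log2 scale (SE 0.08, adjusted p = 3.6e-06 by limma). The sterile males were thus more than 1 log2 unit above every *DxD* male. Ctag2, of a family of cancer/testis antigens, measured 9.53, 9.26 and 9.40 in the *DxD* males and 10.44, 10.49 and 10.23 in the *MxD* males, a difference of 0.99 on the log2 scale (SE 0.11, adjusted p = 8.1e-05 by limma). Both genes were well apart between the genotypes.

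Several of the genes encode proteins of the sperm head. Cypt3, of a family of cysteine-rich proteins of the perinuclear theca, the shell around the sperm nucleus, measured 10.75, 10.86 and 10.97 in the *DxD* males and 11.54, 11.88 and 11.78 in the *MxD* males, a difference of 0.87 on the log2 scale (SE 0.13, adjusted p = 5.8e-04 by limma). Actrt1, an actin-related protein of the same structure, measured 8.15, 8.19 and 8.30 in the *DxD* males and 8.62, 9.02 and 8.86 in the *MxD* males, a difference of 0.62 on the log2 scale (SE 0.12, adjusted p = 0.0031 by limma). Cylc1, a cylicin of the sperm head, measured 8.21, 7.92 and 8.09 in the *DxD* males and 8.90, 8.33 and 8.62 in the *MxD* males, a difference of 0.54 on the log2 scale (SE 0.14, adjusted p = 0.0123 by limma). The *MxD* males were higher at each, but those of Cylc1 spread more widely and came within 0.11 of the highest *DxD* male. Without *DxD* replicate 2 the Cylc1 adjusted p by limma was 0.0537. With all males it was 0.113 by the methods' t-test with equal variances and 0.163 by the unequal-variance test. For Actrt1 it was 0.0934 by the unequal-variance test.

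Efhc2, a protein of the microtubules of cilia and sperm tails, measured 8.74, 8.70 and 8.80 in the *DxD* males and 9.32, 9.08 and 9.26 in the *MxD* males, a difference of 0.47 on the log2 scale (SE 0.08, adjusted p = 0.00161 by limma). Piga, which acts in the making of the lipid anchors that hold proteins on the cell surface, measured 7.23, 7.22 and 7.30 in the *DxD* males and 7.77, 8.04 and 7.97 in the *MxD* males, a difference of 0.68 on the log2 scale (SE 0.11, adjusted p = 7.9e-04 by limma). In both genes the *MxD* males varied more than the *DxD* males and did not overlap with them. The smallest difference was at 4930402K13Rik, with 6.70, 6.80 and 6.86 in the *DxD* males and 7.04, 7.05 and 7.23 in the *MxD* males, a difference of 0.32 on the log2 scale (SE 0.09, adjusted p = 0.0245 by limma). Its call was lost without *MxD* replicate 3, without *DxD* replicate 1 or without *DxD* replicate 2 (limma adjusted p = 0.0979, 0.0929 and 0.0606). The call of 1700008I05Rik was lost likewise without *MxD* replicate 2 or 3 or *DxD* replicate 1, with limma adjusted p of 0.0570, 0.0681 and 0.0730. Both were also lost by the methods' t-test with equal variances (adjusted p = 0.0584 and 0.0602). They were lost too by the unequal-variance test (adjusted p = 0.0835 and 0.0832). The unequal-variance test gave an adjusted p of 0.0727 for Efhc2 and 0.0676 for Piga.

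**Figure D4:**
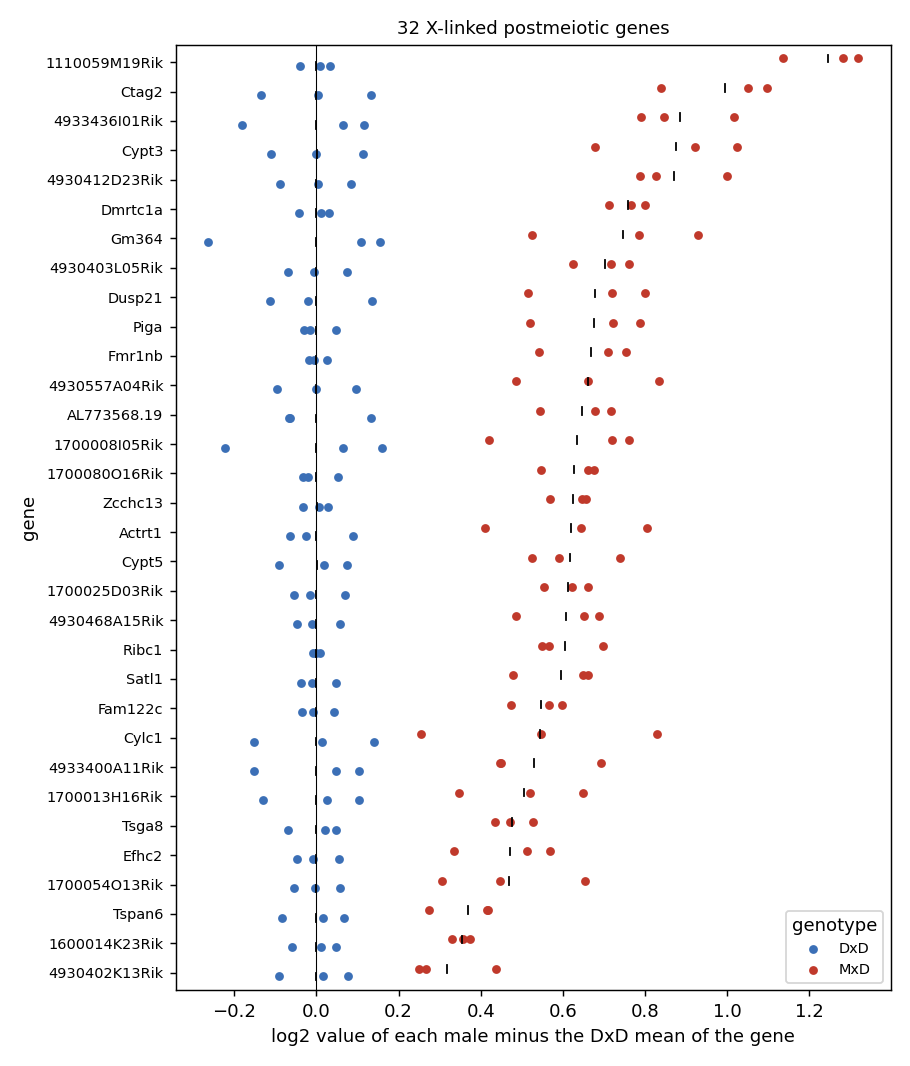
Log2 value of each male minus the *DxD* mean of the gene (x axis) for 32 X-linked postmeiotic genes (y axis, ordered by difference), with *DxD* males in blue, *MxD* males in red and ticks at the genotype means. Every red point lies to the right of every blue point of its gene, and the *MxD* means run from 0.32 for 4930402K13Rik to 1.25 for 1110059M19Rik.

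The levels of the fertile genotypes at these genes are given as a description, since the choice of the genes required *MxD* to exceed each of them. Averaged over the 32 genes, the *MxD* males lay 0.61, 0.66 and 0.66 above the *DxD* mean. The *MxM* males, which share the PWK/PhJ X chromosome with them, lay at 0.04, 0.23 and 0.32, and the *DxM* males, with the LEWES/EiJ X chromosome of *DxD*, lay at -0.15, -0.02 and -0.07. The *MxM* males spread more widely than those of the other genotypes. Gene by gene, the *MxM* difference from *DxD* had a median of 0.20 and a range of -0.26 to 0.96. Of the 32 genes, 9 were higher in *MxM* by limma after adjustment, where 17.8% of all genes were higher. In *DxM* the median was -0.06. Of the 32 genes, 3 were lower in *DxM* by limma, where 6.21% of all genes were, namely 4930402K13Rik, Efhc2 and 1600014K23Rik.

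The largest differences were partly present in *MxM*. The gene 1110059M19Rik was 0.96 higher in *MxM* than in *DxD*, against -0.19 in *DxM*. The 32 genes start between 8681688 and 166214189 on the X chromosome (mouse build 37). In 4 groups of 8 genes by position, the median differences were 0.64, 0.65, 0.60 and 0.62, and across the 32 genes, which share the same 6 males, start position and difference had r = 0.04 and rho = 0.06.

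The same list holds 9 autosomal mitotic genes chosen for lower expression in sterile males, against the direction of their class. They too were chosen on these samples, so their direction and separation are a description and not independent evidence. By limma after adjustment 7 were lower in *MxD*, where 15.1% of all genes were, and the median of the 9 was -0.35. With the dimmest 25% of genes left out only 1 of the 7, Usp48, was called, since the others are among those dim genes. The largest difference was at Brwd1, a bromodomain protein whose loss makes male mice sterile. It measured 6.80, 6.72 and 6.68 in the *DxD* males and 6.23, 6.28 and 6.24 in the *MxD* males, a difference of -0.48 on the log2 scale (SE 0.06, adjusted p = 2.2e-04 by limma). Dnmt3a, a DNA methyltransferase that sets new methylation in the germ line, measured 5.36, 5.32 and 5.35 in the *DxD* males and 5.08, 4.96 and 5.06 in the *MxD* males, a difference of -0.31 on the log2 scale (SE 0.06, adjusted p = 0.00315 by limma). At both the *MxD* males were below every *DxD* male. By the unequal-variance test the adjusted p of Dnmt3a was 0.0683.

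The imprinted noncoding RNA Meg3 measured 5.83, 5.98 and 5.82 in the *DxD* males and 5.49, 5.48 and 5.34 in the *MxD* males, a difference of -0.44 on the log2 scale (SE 0.09, adjusted p = 0.00469 by limma). Mthfd1, an enzyme of folate metabolism, measured 6.67, 6.64 and 6.63 in the *DxD* males and 6.36, 6.22 and 6.19 in the *MxD* males, a difference of -0.39 on the log2 scale (SE 0.06, adjusted p = 0.00105 by limma). Neither overlapped between the genotypes. Sirpa, a surface receptor of the immunoglobulin family, measured 5.82, 5.91 and 6.02 in the *DxD* males and 5.63, 5.59 and 5.39 in the *MxD* males, a difference of -0.38 on the log2 scale (SE 0.09, adjusted p = 0.011 by limma). Baz2b, a bromodomain protein, measured 6.70, 6.64 and 6.65 in the *DxD* males and 6.34, 6.41 and 6.46 in the *MxD* males, a difference of -0.26 on the log2 scale (SE 0.07, adjusted p = 0.0182 by limma). The *MxD* males were lower at both, but the call of Sirpa was lost without *DxD* replicate 3 (limma adjusted p = 0.0507) and that of Baz2b without *MxD* replicate 1, *DxD* replicate 1 or *DxD* replicate 3 (limma adjusted p = 0.0565, 0.0650 and 0.0505). By the unequal-variance test the adjusted p was 0.0798 for Mthfd1, 0.0862 for Sirpa and 0.0584 for Baz2b. For Sirpa it was 0.0592 by the methods' t-test with equal variances. The deubiquitinating enzyme Usp48 was the other mitotic gene that was lower.

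Nup155, a component of the nuclear pore, had 8.01, 8.04 and 7.97 in the *DxD* males and 7.67, 7.90 and 7.81 in the *MxD* males, a difference of -0.21 on the log2 scale (SE 0.08, adjusted p = 0.0619 by limma). It passed with the replicate number as a block (limma adjusted p = 0.0156). For Ppp1r15b, a regulatory subunit of a phosphatase that acts on translation initiation, the difference was -0.15 (SE 0.08, adjusted p = 0.195 by limma), and it did not pass. At both genes every *MxD* male lay below every *DxD* male, as at 1790 of all 7000 genes. In *MxM*, 2 of the 9 genes were lower than in *DxD*, Brwd1 and Mthfd1, where 14.0% of all genes were. In *DxM* 1 was lower, Brwd1, where 6.21% of all genes were.

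Lastly, 4 autosomal postmeiotic genes of the list were chosen on these samples for higher expression in sterile males. Their direction is likewise no independent evidence. All 4 were higher in *MxD* by limma after adjustment, where 15.9% of all genes were. They are not all known as spermatid genes. Cyp17a1, an enzyme of testosterone synthesis known from Leydig cells, measured 9.84, 10.61 and 9.97 in the *DxD* males and 11.23, 11.17 and 11.29 in the *MxD* males, a difference of 1.09 on the log2 scale (SE 0.27, adjusted p = 0.0103 by limma). The *MxD* males lay close together, while *DxD* replicate 2 was well above the other *DxD* males and still below every *MxD* male. It is the only Leydig cell marker with a symbol here, and the part of Leydig cell number in its difference was not tested. Its means were 10.56 in *DxM* and 9.97 in *MxM*. Without replicate 1 of every genotype the difference from *DxD* was 0.94 (limma adjusted p = 0.0969). With all males the adjusted p was 0.13 by the unequal-variance test.

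Spinlw1, which encodes the sperm-coating protein eppin known from Sertoli cells and epididymis, had a mean of 8.93 ± 0.11 (SD, n = 3) in *DxD* and values of 9.46, 9.33 and 9.49 in the *MxD* males, a difference of 0.50 on the log2 scale (SE 0.08, adjusted p = 0.00105 by limma). Aqp8, a water channel, measured 7.85, 7.97 and 7.94 in the *DxD* males and 8.28, 8.19 and 8.24 in the *MxD* males, a difference of 0.32 on the log2 scale (SE 0.07, adjusted p = 0.00667 by limma). The gene BC048507 measured 10.67, 10.69 and 10.71 in the *DxD* males and 10.94, 11.05 and 10.91 in the *MxD* males, a difference of 0.27 on the log2 scale (SE 0.08, adjusted p = 0.027 by limma). At each of the 3 every *MxD* male lay above every *DxD* male, as at 1747 of all 7000 genes. The call of BC048507 was lost without *MxD* replicate 2 and without *DxD* replicate 1, 2 or 3 (limma adjusted p = 0.0892, 0.0781, 0.0712 and 0.0636). It was also lost by the unequal-variance test (adjusted p = 0.0886). The call of Aqp8 was lost without replicate 1 of every genotype (limma adjusted p = 0.0594).

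**Figure D5:**
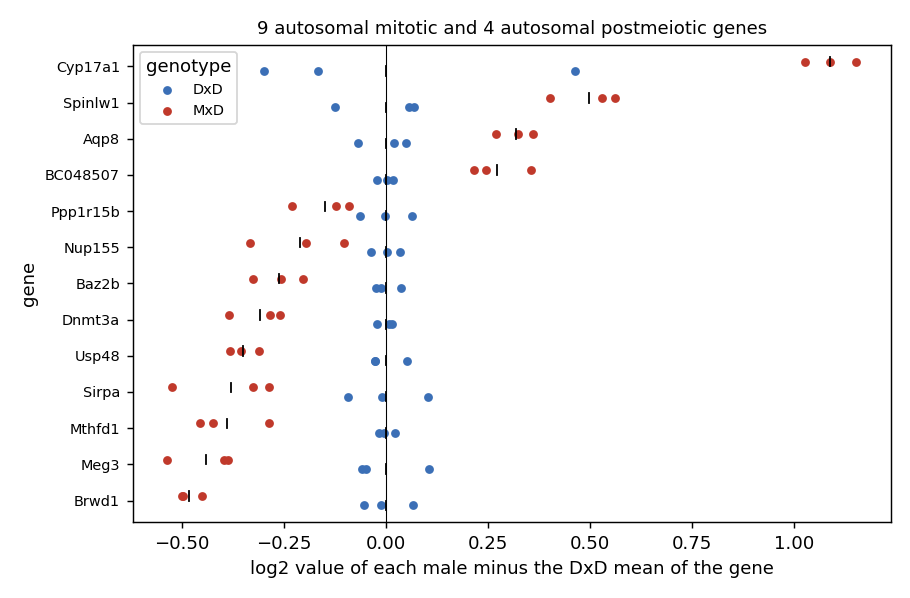
Log2 value of each male minus the *DxD* mean of the gene (x axis) for 4 autosomal postmeiotic and 9 autosomal mitotic genes (y axis), with *DxD* males in blue, *MxD* males in red and ticks at the genotype means. The *MxD* means run from -0.48 for Brwd1 to 1.09 for Cyp17a1. The *MxD* and *DxD* males do not overlap at any of the 13 genes, where they do not at 50.5% of all genes. The 13 genes were chosen on these samples for a difference in sterile males.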

How the data were processed

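Per the labels and methods, the authors summarised array probes per Ensembl gene (annotation 52, mouse build 37) with PLIER, using version 11 of the BRAINARRAY files, retained genes detected in every male, and deposited quantile normalized log2 values. This normalization gives all arrays 1 distribution, so a shift of most genes would not be seen. Genotypes were checked on 1997 genes of the study's gene table (values within 5.0e-05), which gave cell class and chromosome.

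Genes were tested two-sided with limma 3.58.1 (R 4.3.3), with a coefficient for each genotype over 12 arrays, the contrast *MxD* minus *DxD* and Benjamini-Hochberg adjustment over 7000 genes. In simulated data with 200 genes changed between *MxD* and *DxD*, 94% of changes of 1 log2 unit and 55% of 0.5 were recovered. Of its 158 calls 9 were false. It used independent errors and 1 SD per gene for all genotypes. Far fewer genes were changed than the 2170 called in the data, so these rates need not hold there. The main fit has no block. Deviations from the genotype mean correlated between males of one number at r = 0.694, 0.189 and 0.446 (replicates 1 to 3). Each was above the 0.1 set for pairing, so the number was used as a block in an alternative fit. Males of different number ranged from -0.591 to 0.526, so some correlated as much, and the labels do not say what the numbers mark. Alternatives changed the test, threshold, filter, centring, arrays or block.

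Comparisons and lists were chosen with earlier results of these data known. Named were the largest differences without overlap (2 IDs a direction) and genes of the study's list, with values for at most 8 per class, by known role, largest or smallest. Of 718 symbols in prepared marker and pathway lists 6 matched an ID, so these lists were not applied. Figures used matplotlib 3.10.9 (Python 3.11.15).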

Additional observations from a re-analysis of the deposited data

How the results depend on the processing

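The 2170 genes (1116 higher, 1054 lower) were 1586 (786 and 800) by the methods' t-test with equal variances, adjusted by Benjamini-Hochberg, with 71 postmeiotic genes lower, 103 mitotic genes higher and 27 of the 32 X-linked genes. By the unequal-variance test they were 654 (354 and 300), with 29, 47 and 18. At a limma adjusted p under 0.01 they were 1224 (621 and 603), with 78 mitotic genes higher. In the fit with the replicate number as a replicate block over 12 arrays they were 3217 (1643 and 1574). With the replicate block over the 6 arrays alone, added after seeing the data, they were 3638 (1819 and 1819), with 144 postmeiotic genes lower and 231 mitotic genes higher. The block changed the call of 1 named gene, Nup155. Leaving out 1 *MxD* or *DxD* male gave 1536 to 2060 genes, 773 to 1072 higher and 763 to 988 lower, with 66 to 98 postmeiotic genes lower and 91 to 133 mitotic genes higher. The median difference then ranged from 0.13 to 0.20 for somatic, -0.11 to -0.08 for meiotic, 0.23 to 0.29 for mitotic and -0.26 to -0.19 for postmeiotic genes. The somatic median was 0.24 without the dimmest 25% of genes. With arrays centred on the median of the 1997 autosomal genes it was 0.14, and the meiotic median was -0.13. The meiotic median was -0.077 without replicate 1 of every genotype. The cause of these changes was not tested. Of 872 values of 49 named genes under alternatives, 53 lost and 5 gained a call, the latter all of Nup155. That 0 changed direction is no check. The *MxD* and *DxD* males overlapped at none of these genes, so leaving out males could not reverse a difference. A change of test, threshold or block leaves the difference itself as it is.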

Other observations

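The sterile males varied more among themselves than the *DxD* males, but so did the fertile *DxM* and *MxM* males. The median SD between males was 0.15 in *MxM*, 0.12 in *MxD*, 0.11 in *DxM* and 0.08 in *DxD*. A spread above that of *DxD* was therefore not particular to the sterile males. The SD over 3 males was larger in *MxD* than in *DxD* at 5025 of 7000 genes, and at the 32 X-linked genes the median SD was 0.11 in *MxD* and 0.07 in *DxD*.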
